A study of Mus musculus with 6 samples.

Results

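The 10 genes described here are Atf4, Atf5, Ddit3, Trib3, Chac1, Asns, Phgdh, Psat1, Psph and Mthfd2. They are genes of the integrated stress response and of the amino acid and folate enzymes linked to it. They were chosen by name, and each was found under its symbol once among the 15095 genes of the table. PolyA RNA had been sequenced from mouse neural progenitor cells (NPC), 3 wild-type and 3 Setd2-KO libraries. Setd2 encodes a methyltransferase of histone H3 lysine 36, and the Setd2-KO embryonic stem cells are a CRISPR-made line in the same HA36CB1 background as the wild type. Neither the labels nor the methods say if more than 1 clone was used, or if the replicates were grown as separate cultures. Cells of both genotypes were kept as aggregates for 4 days without retinoic acid and then for 4 days with 5 uM retinoic acid, in medium with serum, non-essential amino acids and glutamine. The titles name NPC, whereas the cell type field names embryonic stem cells.

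The value used for each gene is the authors' average log2 CPM, the log2 of its library-size-scaled read count (CPM) averaged over the 6 libraries of both genotypes. It carries no SD and no value per library, so read depth is unknown, no interval can be given, and no difference between genes was tested. The table's other measurements are the authors' own comparison of the genotypes, which was not used here, so no difference between Setd2-KO and wild-type NPC is given for any gene. In such bulk RNA, fewer cells expressing a gene and less RNA per cell cannot be told apart.

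The integrated stress response is switched on when kinases that sense a lack of amino acids, misfolded protein, viral RNA or a lack of heme phosphorylate the translation factor eIF2. Protein synthesis then falls in general, while the Atf4 mRNA is translated more through the upstream reading frames in its leader. The ATF4 protein, a bZIP transcription factor, pairs with C/EBP family factors on C/EBP-ATF response elements (CARE) and raises genes for amino acid synthesis, uptake and tRNA charging. Serine made from the glycolytic intermediate 3-phosphoglycerate feeds glycine and the folate cycle, which supply nucleotide synthesis in dividing progenitors. As ATF4 is controlled to a large extent at translation, the RNA levels below are not levels of the proteins.

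The short sequences that hold a CARE-like motif are shown first, since they are what the promoters of some of these genes share. RefSeq promoter windows on GRCm38.p6, 250 bases before to 50 bases after a start site, were found for all 10 genes, in 12 windows because Atf5 and Psat1 have 2 each. The CARE-type motif TGATGNAAN was searched on both strands, and capitals mark the matched bases, read 5′ to 3′ on the strand of the gene.
Asns, chr6:7693224-7693232, minus strand: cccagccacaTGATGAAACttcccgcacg
Chac1, chr2:119351048-119351056, plus strand: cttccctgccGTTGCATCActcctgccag
Trib3, chr2:152344039-152344047, minus strand: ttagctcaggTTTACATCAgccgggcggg

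The Asns match began 23 bases before the start site and lay on the strand of the gene. The Chac1 match began 194 bases before the start site and the Trib3 match 14 bases after it, both on the opposite strand. The motif was thus found in 3 of the 10 genes, compared with 3.95% of all 32851 windows and 2.76% of the 11866 genes of the table that have a window. The strict form TGATGCAAT, with no free position, was found in 0 of the 10 genes, compared with 0.192% of all windows and 0.135% of the table's genes. These shares are descriptions, because the 10 genes were chosen with knowledge of the pathway, and several of them are textbook ATF4 targets.

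A looser form, TGNNGCAAN, was chosen after the first matches had been seen and overlaps with the CARE-type motif. The looser form was found in 4 of the 10 genes, Atf5, Trib3, Chac1 and Psat1, compared with 11.4% of all windows and 11.4% of the table's genes. Trib3 and Psat1 held the same 9 letters, TGGTGCAAT, on the strand of the gene, beginning 33 and 136 bases before their start sites. The upstream matches are shown with their flanks.
Trib3, chr2:152344085-152344093, minus strand: gggtcacagaTGGTGCAATcccgggccgc
Psat1, chr19:15925187-15925195, minus strand: cgcgggtggcTGGTGCAATcccctgctct
Atf5, chr7:44816890-44816898, minus strand: cctaagctagCTTGCGCCAttcggcgatg

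Chac1 was the gene with most matches, 3 to the looser form, of which the third is its CARE-type match. All of its matches lay upstream, and the 250 bases before its start site, chr2:119350992-119351241 on the plus strand, are shown whole with the matches in capitals.
Chac1: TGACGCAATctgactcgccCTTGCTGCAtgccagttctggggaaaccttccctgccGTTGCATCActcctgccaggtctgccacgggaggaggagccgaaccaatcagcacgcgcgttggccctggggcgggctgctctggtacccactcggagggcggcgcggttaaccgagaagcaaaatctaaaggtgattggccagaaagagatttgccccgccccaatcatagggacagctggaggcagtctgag

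The CCAAT box, the letters CCAAT on either strand, was found in 8 of the 10 genes, all except Trib3 and Asns, compared with 37.4% of all windows and 42.9% of the table's genes. The cAMP response element TGACGTCA, the E-box CACGTG and the ER stress element (ERSE) were found in 0 of the 10 genes. Their shares were 1.79%, 7.15% and 0.119% of all windows, and 3.41%, 11.2% and 0.169% of the table's genes. The windows of the 10 genes had a median GC content of 60.5%, with a range from 47.7% for Phgdh to 68% for the first Atf5 window, compared with a median of 52.7% over all windows. A match describes letters in these windows and does not show binding.

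**Figure D1:**
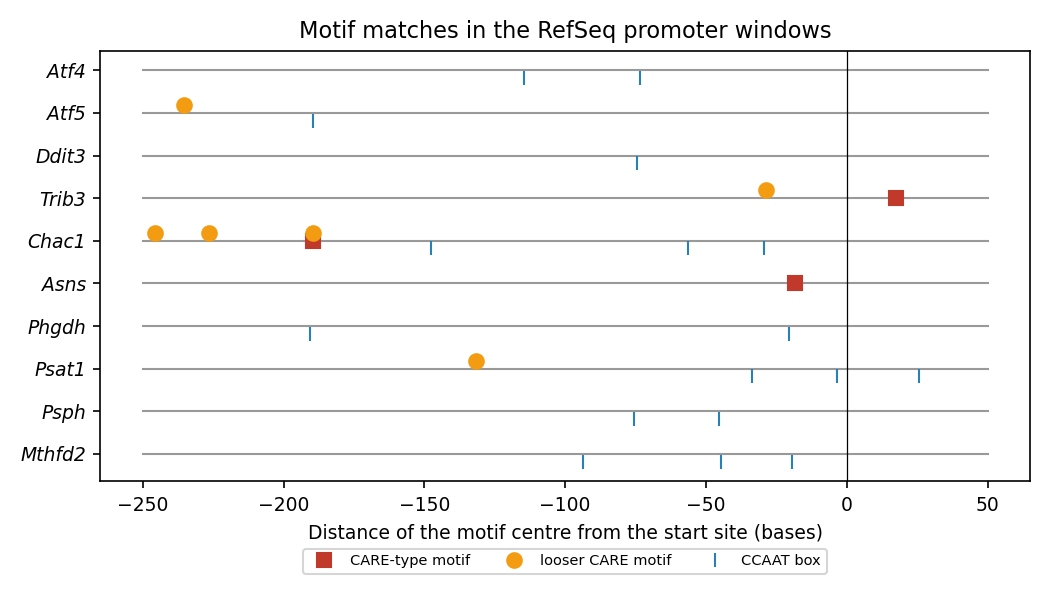
Positions of motif centres in the promoter windows of the 10 genes, as distance in bases from the start site (x axis). Squares are the CARE-type motif, circles the looser form TGNNGCAAN and ticks the CCAAT box. The windows of a gene with 2 start sites are drawn on the same line. Chac1 holds 3 of the 6 circles, and the square of Trib3 is the only one after the start site.

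Among the 10 genes, RNA of Phgdh, Atf4 and Psat1 was abundant and RNA of Trib3 and Chac1 was scarce. Together the 10 genes made up 0.0635% of the summed CPM of all genes, and Phgdh, Psat1 and Atf4 accounted for 74.6% of that part. On the log2 CPM scale, 3 of the 10 lay in the top 25% of the 15095 genes and 6 above the median gene. Per kb of the canonical GENCODE transcript, 4 lay in the top 25% and 7 above the median of the 15066 genes with an annotated length. This is the scale used here to compare genes, although the transcripts in use are not known and other length measures moved some places.

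**Figure D2:**
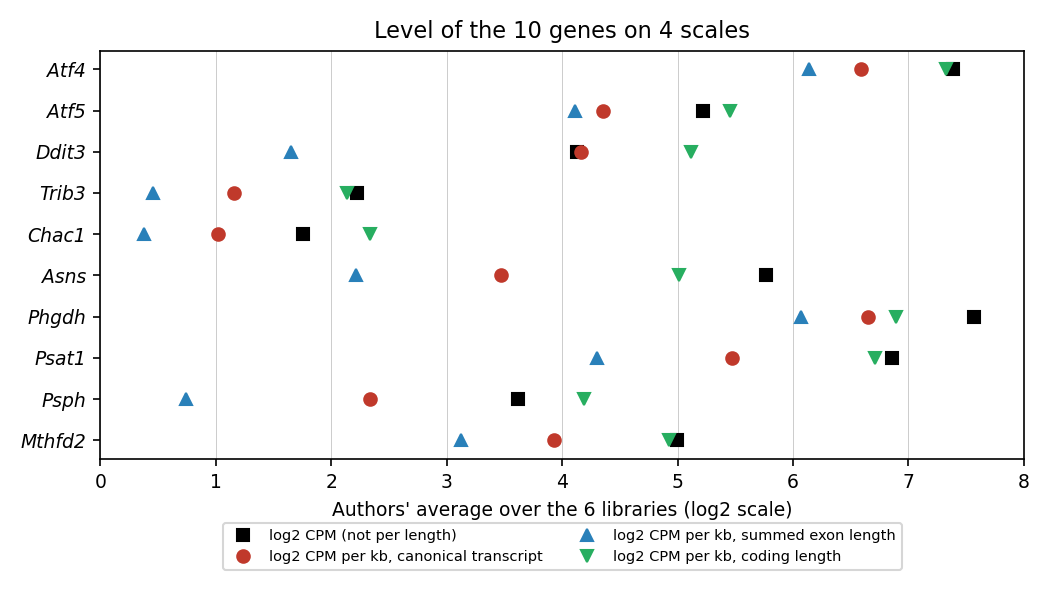
Level of each of the 10 genes as the authors' average over the 6 libraries, on 4 log2 scales (x axis): log2 CPM and log2 CPM per kb of 3 length measures. Atf4, Phgdh and Psat1 lie to the right and Trib3 and Chac1 to the left on each scale, and the symbols of Ddit3 run from 1.65 with the summed exon length to 5.12 with the coding length.

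Of the transcription factors, Atf4, the central factor of the response, had the highest level. Its average was 7.39 log2 CPM, or 168 CPM, and 96.4 CPM per kb, at or above 96.1% of genes. Atf4 (ENSMUSG00000042406) lies on GRCm39 at chr15:80139372-80141745 on the plus strand, and its canonical transcript of 1741 bases has 3 exons.

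Atf5, a related bZIP factor whose mRNA is also controlled by upstream reading frames, was at 5.22 log2 CPM and 20.5 CPM per kb, at or above 76% of genes. Atf4 RNA was thus 4.71 times as abundant per kb as Atf5 RNA, and 4.09 and 3.66 times with the summed exon length and the coding length. Atf5 (ENSMUSG00000038539) lies at chr7:44461680-44466082 on the minus strand, with 180 exon bases that Il4i1 and Nup62 also cover on the opposite strand.

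Ddit3, which encodes the bZIP factor CHOP of the later, death-promoting phase of the response, was at 4.13 log2 CPM and 17.9 CPM per kb, at or above 72.9% of genes. With the summed exon length its place was below the median gene, at 46.6%, and the number of the 10 genes above the median was then 6 in place of 7. The ratio of Atf4 to Ddit3 was 5.39 per kb of canonical transcript, 4.62 with the coding length and 22.5 with the summed exon length. Ddit3 (ENSMUSG00000025408) lies at chr10:127124268-127132163 on the plus strand, and 3576 of its 5579 summed exon bases are shared with Mars1 on the opposite strand, which was at 6.66 log2 CPM. A second annotated Ddit3 entry, not in the table, shares 105 exon bases on the same strand. The library kit keeps the strand, but no source used here gives the strand setting of the counting, and the part of this overlap in the Ddit3 value was not tested.

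Both stress effectors were in the lower part of the table. Trib3, a pseudokinase that binds ATF4 and is itself an ATF4 target, was at 2.22 log2 CPM and 2.23 CPM per kb, at or above 30.8% of genes. Chac1, an enzyme that degrades glutathione, was at 1.75 log2 CPM and 2.03 CPM per kb, at or above 29.5% of genes. The level of Trib3 was the higher per kb of canonical transcript, at 1.16 compared with 1.02 on the log2 scale, and their order turned with the coding length, on which the ratio of Trib3 to Chac1 was 0.871.

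The level of Atf4 was 47.5 times that of Chac1 per kb, and 54.4 and 31.8 times with the summed exon length and the coding length. Trib3 (ENSMUSG00000032715) lies at chr2:152179337-152191958 on the minus strand and Chac1 (ENSMUSG00000027313) at chr2:119180757-119184866 on the plus strand. They are the pair of the 10 genes with the lowest levels on each of the 4 scales. A relation between these levels and the motif matches was not tested.

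Within the serine pathway, the first enzymes were abundant and the last was not. Phgdh, which oxidizes 3-phosphoglycerate in the step that commits it to serine, had 7.57 log2 CPM and 100.5 CPM per kb, at or above 96.2% of genes. Psat1, the aminotransferase of the next step, had 6.86 log2 CPM and 44.3 CPM per kb, at or above 89.6% of genes. Psph, the phosphatase that releases serine, had 3.62 log2 CPM and 5.06 CPM per kb, at or above 43.8% of genes.

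Per kb, Phgdh RNA was 2.27 times as abundant as Psat1 RNA, and Psat1 RNA 8.76 times as abundant as Psph RNA. The step from Psat1 to Psph was 11.8 with the summed exon length and 5.74 with the coding length, so that Psph remained the lowest of these enzymes on each length measure. The step from Phgdh to Psat1 was 3.42 and 1.14 on the same measures. Phgdh (ENSMUSG00000053398) lies at chr3:98220484-98255047, Psat1 (ENSMUSG00000024640) at chr19:15882039-15924701 and Psph (ENSMUSG00000029446) at chr5:129841925-129864513, all on the minus strand. Psph shares 465 exon bases with Cct6a, a chaperonin subunit gene on the opposite strand at 7.16 log2 CPM, and the part of this overlap in the Psph value was not tested.

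Asns, which makes asparagine from aspartate and glutamine, was at 5.76 log2 CPM and 11.1 CPM per kb, at or above 61.8% of genes. Its canonical transcript of 4901 bases is the longest of the 10, and its place was lower than on the log2 CPM scale, where 70.5% of genes were at or below it, with each of the 3 length measures. The place of Psph was also lower with the summed exon length (34.6% compared with 38%) and that of Phgdh with the coding length (90.3% compared with 93.2%). Mthfd2, the mitochondrial folate enzyme of proliferating cells, was at 5.00 log2 CPM and 15.2 CPM per kb, at or above 69.3% of genes. The ratio of Asns to Mthfd2 was 0.728 per kb of canonical transcript and 0.531 with the summed exon length, and it turned to 1.06 with the coding length. Asns (ENSMUSG00000029752) lies at chr6:7671667-7728461 and Mthfd2 (ENSMUSG00000005667) at chr6:83282673-83302890, both on the minus strand.

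Per kb of canonical transcript, the order from high to low was Phgdh, Atf4, Psat1, Atf5, Ddit3, Mthfd2, Asns, Psph, Trib3 and Chac1. Phgdh and Atf4 differed by a factor close to 1 (Atf4 over Phgdh 0.959), and Atf4 was above Phgdh with the summed exon length (1.05) and the coding length (1.35). As no spread between libraries is known, which neighbours in this order differ beyond it could not be tested.

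**Figure D3:**
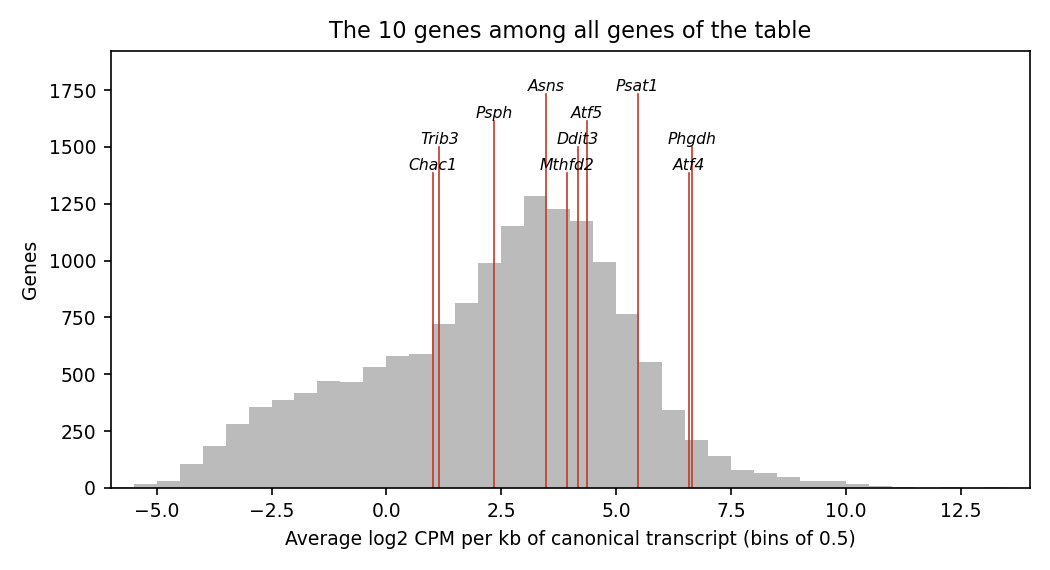
Number of genes (y axis) by average log2 CPM per kb of canonical transcript (x axis, bins of 0.5), with a line for each of the 10 genes. Chac1, Trib3 and Psph lie below the median of all genes (2.77), and Atf4 and Phgdh in the upper tail at 6.59 and 6.65.

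The wider pathway was described with 8 lists of genes, each by the 3 genes with the highest and the 1 with the lowest average log2 CPM. Some genes with a high or low level per kb are named as well. Upstream of Atf4, all 16 genes for eIF2 kinases and eIF2 control were in the table, with a median of 4.31 log2 CPM per kb compared with 4.04 for the 10 genes and 2.77 for all genes. Gcn1, listed in the table as Gcn1l1, the activator of the amino acid sensing kinase, was at 4.54 log2 CPM per kb. Ppp1r15b, a subunit of the phosphatase that resets eIF2, was at 4.78, and Eif2b5, a subunit of the eIF2 exchange factor, at 5.42 on the same scale. Oma1, a mitochondrial protease that relays mitochondrial stress to the pathway, was lowest by CPM, at 2.06 log2 CPM per kb, whereas per kb the kinase gene Eif2ak2 was lowest at 1.63.

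Of the bZIP partners and other stress factors, all 17 were in the table, with a median of 2.81 log2 CPM per kb, close to that of all genes. Nfe2l1, a bZIP factor that controls proteasome genes, was at 5.54 log2 CPM per kb, Atf2 at 3.74 and Mafg, a small Maf partner, at 3.69. Nupr1, a small stress-induced chromatin protein, was lowest by CPM, at -0.27 log2 CPM per kb, whereas per kb Cebpd was lowest at -1.23. Xbp1, lower than Atf2 and Mafg by CPM, was above both per kb, at 4.32. Atf4 exceeded each of these 17 genes per kb, as the highest of them was at 5.54 and Atf4 at 6.59 log2 CPM per kb.

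Downstream of serine, 14 of 15 genes for serine, glycine and folate enzymes were in the table, with a median of 3.41 log2 CPM per kb. Shmt2, the mitochondrial enzyme that turns serine into glycine, was at 5.84 log2 CPM per kb and thus higher than Psph (2.34) and Mthfd2 (3.93). Gcsh and Gldc of the glycine cleavage system were at 5.95 and 4.03. Aldh1l1, a cytosolic folate enzyme known as an astrocyte marker, was lowest at -2.13 log2 CPM per kb.

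The aminoacyl-tRNA synthetases, which charge tRNAs and include known ATF4 targets, were the list with the highest median of the 8, at 5.48 log2 CPM per kb. Of its 20 genes, 19 lay in the top 25% of all genes, compared with 4 of the 10. Sars for serine, Vars for valine and Aars for alanine, the highest by CPM, were at 6.52, 6.09 and 6.03 log2 CPM per kb. Per kb, Kars for lysine was the highest at 6.77, and Cars for cysteine was lowest at 2.87.

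Amino acid transporters spanned the widest range, from -3.72 to 6.26 log2 CPM per kb over 11 genes, with a median of 2.48. Slc38a2, which takes up neutral amino acids such as glutamine, was at 6.26, Slc3a2, the common heavy chain of several transporters, at 5.87, and the related Slc38a1 at 5.17. Slc7a11, the cystine carrier that pairs with Slc3a2, was lowest at -3.72 log2 CPM per kb, at or above 1.6% of genes.

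Of the other amino acid enzymes, all 14 were in the table, with a median of 4.18 log2 CPM per kb. Got2, a mitochondrial aspartate aminotransferase, was at 7.29 and Glul, glutamine synthetase, at 7.24 log2 CPM per kb, whereas Aspg was lowest at -2.03. Got2 and Glul were above Asns, which was at 3.47 on this scale. Among other stress targets, 13 of 14 were in the table with a median of 4.05 log2 CPM per kb. Nars, which is also in the list of synthetases, was at 5.76, the autophagy receptor Sqstm1 at 5.46 and the mitochondrial protease Lonp1 at 5.45. These were the highest by CPM, whereas per kb Ddit4 was the highest of this list, at 6.05. The secreted stress factor Gdf15 was lowest at -1.70 log2 CPM per kb, below Trib3 at 1.16 and Chac1 at 1.02.

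**Figure D4:**
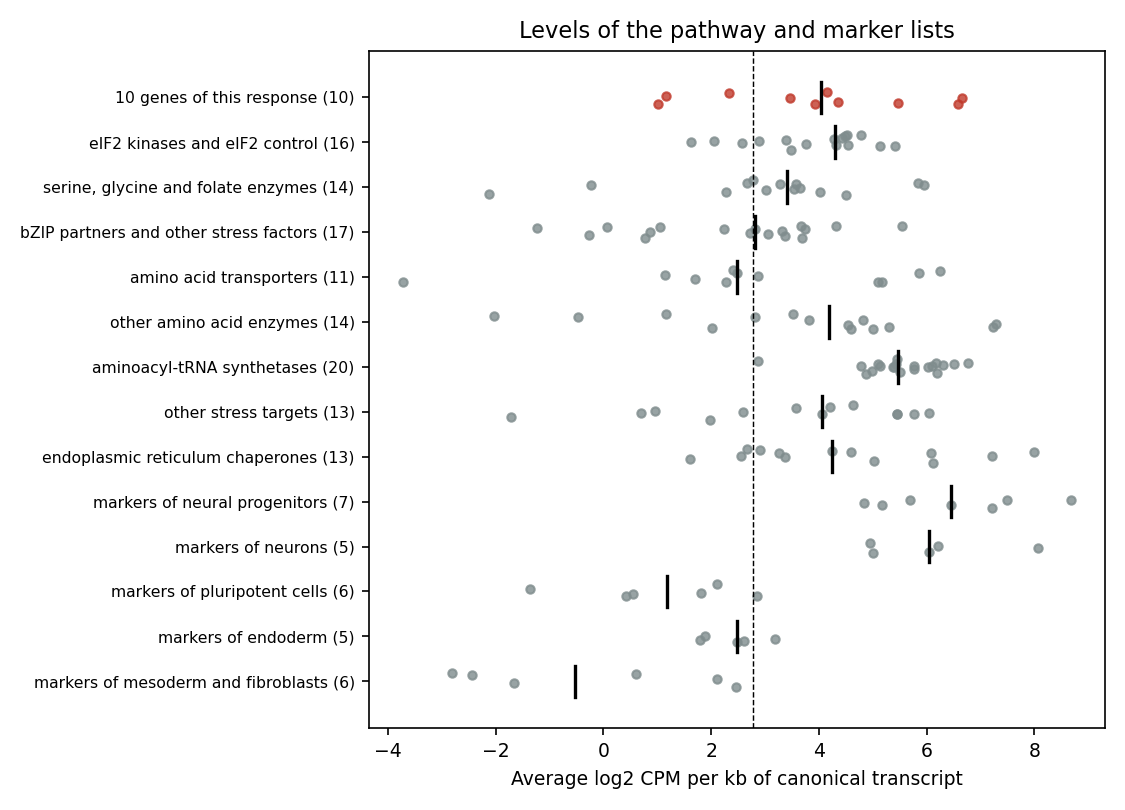
Average log2 CPM per kb of canonical transcript (x axis) of the 10 genes (first row), of the 8 pathway lists and of the 5 marker lists, with the number of genes in the table in parentheses. Each point is a gene, shifted vertically at random, short bars are medians and the dashed line is the median of all genes (2.77); the 10 genes spread from 1.02 to 6.65, around a median of 4.04.

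Markers of the labelled cells were high in the same table. Of 8 neural progenitor markers, 7 were found, with a median of 6.45 log2 CPM per kb, including Vim at 8.69, Msi1 at 7.49, Pax6 at 5.70 and Sox2 at 6.45, and Sox1 was not in the table. The 5 neuron markers had a median of 6.05, with Tubb3 at 8.07 log2 CPM per kb. Markers of pluripotent cells had a median of 1.18 log2 CPM per kb, and ranged from Nanog at -1.36 to Dppa5a at 2.86, just above the median of all genes. Markers of endoderm had a median of 2.48, from 1.80 for Ttr to 3.18 for Sox17, and markers of mesoderm and fibroblasts a median of -0.53, from -2.80 for Myh6 to 2.47 for Col1a2. Neuron markers were thus high beside progenitor markers, and the part of either cell type in the levels of the 10 genes was not tested. Setd2, the targeted gene, had an average of 6.88 log2 CPM over both genotypes, which does not check the genotype labels.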

How the data were processed

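PolyA RNA-seq of 3 wild-type and 3 Setd2-KO NPC libraries was used, grouped by their titles. The study's methods name trimming, alignment to GRCm39 with STAR, Salmon quantification with GENCODE M35 and TMM normalization in edgeR after a filter on low counts, whereas the submitters' processing notes name NCBIM37 and mm9 beside Trim Galore, STAR and edgeR. Neither source states which of these gave the deposited values, which may therefore not come from GENCODE M35. The authors' deposited table gives an average log2 CPM for each gene over the 6 libraries, already filtered and normalized. Its 4 columns of fold changes, p-values and FDR hold the authors' own comparison and were not used. The table holds 0 columns of values per library, so depth is unknown.

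Gene IDs were matched without version to GENCODE vM39 on GRCm39. Of 15095 IDs, 15066 were found and 29 were not, and 11 had the same version. A level per kb is the log2 CPM minus log2 of the length in kb of the canonical transcript. A gene's place is the percentage of genes at or below its level. Positions of genes are on GRCm39 and those of RefSeq promoter windows on GRCm38.p6, with no conversion.

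The members and lists were chosen with earlier results of these data known. All members were named, and from each pathway list the 3 genes with the highest and the 1 with the lowest log2 CPM. Marker genes, and some pathway genes with a high or low level per kb, were named beyond this rule after their values were seen. A gene that the rule selects is not reported here. Each step was tested on made-up input of known outcome and run in Python 3.11.15 with pandas 2.3.3. Other length measures, filters and motif forms were tried.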

Additional observations from a re-analysis of the deposited data

How the results depend on the processing

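The median percentage of genes at or below the 10 genes was 58.9 on the log2 CPM scale and 71.1 per kb of canonical transcript. On the latter scale, 9 of the 10 genes had a higher place and 1, Asns, a lower place. The change follows from dividing by length. With the strict motif TGATGCAAT the promoters of 0 of the 10 genes held a match, in place of 3, because none of the 3 matches has these letters throughout. With the looser form of the strict motif, added after seeing the data, 4 did. These 4 include Trib3 and Chac1 but not Asns, so they do not extend the 3. Counts of the 10 genes in the top 25% or above the median stayed within 1.5 times under each filter and length measure. Per length, 4, 4 and 3 were in the top 25% and 7, 6 and 8 above the median for the canonical, summed exon and coding length, the last of which was added after seeing the data. Leaving out genes under 0 log2 CPM lowered all 10 places, by 1.0 to 10.9 percentage points. This lowering follows from the filter, because all 10 genes lie above it.

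No paired analysis was possible because the table holds no values per library. For the same reason no library was left out, and no other normalization or filter on counts was run. As depth is unknown, the counting error of low genes such as Trib3 and Chac1 could not be given.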

Other observations

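The last of the 8 pathway lists held chaperones of the endoplasmic reticulum and other genes of the unfolded protein response, which also leads to eIF2 phosphorylation. All were in the table (13 of 13), with a median of 4.25 log2 CPM per kb and 6 genes in the top 25%. Calr, a calcium-binding lectin chaperone, was at 7.99 log2 CPM per kb, Hsp90b1 at 7.22 and Hspa5, the chaperone BiP, at 6.12. Sdf2l1, a cofactor of the same system, had the lowest log2 CPM of the list and was at 3.26 log2 CPM per kb. Calr and Hsp90b1 were above Phgdh (6.65) and Atf4 (6.59) per kb, and Hspa5 lay between these genes and Psat1 (5.47). These are averages over both genotypes, with no spread between libraries.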
